A study of Mus musculus with 15 samples.

Results

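The comparison described here is cocaine against saline in the thalamus of mice that carry the cKO genotype label. Its members are the 6 libraries labelled cKO cocaine (n = 2) or cKO saline (n = 4), out of 14 libraries with a file and 15 samples in the series; a further sample labelled cKO cocaine was not analysed here. In cKO mice, Cre expressed from the vGluT2 (Vglut2) promoter removes exons of a floxed Maged1 in Vglut2 neurons, and thalamic cells that do not use this promoter are not targeted. Control mice, titled Maged1 WT, gave 4 saline and 4 cocaine libraries, which are used only for comparison. Animals were 2 to 4 months old. All groups received saline for 3 days, and then 20 mg/kg cocaine intraperitoneally, or saline, for 5 days. The time from the last injection to the dissection is not given for these libraries in the sources used here. Groups follow the sample titles, and the genotype tag disagrees with the title for cKO saline replicates 1 and 2, tagged Maged1 Loxp, and for control saline replicates 3 and 4, tagged Maged1cKO.

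The thalamus relays sensory, motor and arousal signals to cortex and striatum, mostly through glutamatergic neurons that use Vglut2. Cocaine blocks the reuptake of dopamine, noradrenaline and serotonin, and psychostimulants are known to raise glucocorticoid hormone and to switch on immediate early genes in many brain regions. Maged1 belongs to the MAGE family, whose members bind ubiquitin-pathway enzymes, and the study follows it with the deubiquitinase Usp7.

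Values are TPM, transcript abundances corrected for transcript length, which the authors deposited and which sum to 312659 to 377401 over the listed genes of a library. Each library was divided here by a trimmed-mean (TMM) factor, giving scaled TPM, and log2(scaled TPM + 0.5) was tested with limma for the 13471 genes that reach 1 TPM in 3 or more of the 14 libraries. A gene is called below when its Benjamini-Hochberg adjusted p-value over these genes is under 0.05 and its log2 fold change is 0.5 or more in size. Fold changes are on this log2 scale, on which the added 0.5 makes those of low genes smaller. Sequencing depth cannot be read from TPM and is unknown here. Nothing in the labels says more of the replicates than that they are independent samples, and p-values measure the spread between these libraries. In whole tissue, fewer cells of a type cannot be told apart from less RNA per cell.

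The 10 most abundant genes took 42.3% and 43% of all TPM in the libraries labelled cKO cocaine, against 20.7% to 22.6% in cKO saline. Short noncoding RNAs took 25.7% and 25%, against 15.8% to 17.2%. In libraries labelled control cocaine these shares were 37.3% to 40.8% and 22.7% to 26.3%, against 22.2% to 23.4% and 17.7% to 18.9% in control saline. Both shares thus separated all cocaine from all saline libraries, and the cause was not tested. With TPM as deposited the median log2 fold change over all protein-coding genes was -0.34, and after scaling it was 0.00. Of protein-coding genes, 45 were then called higher and 2843 lower without scaling, so that every direction below is relative to the scaled centre.

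Maged1, on chromosome X from 94535474 to 94542143 on the minus strand (GRCm38), checks the genotype. It was at 152 and 174 scaled TPM in the libraries labelled cKO cocaine and at 78.0, 76.6, 68.6 and 64.5 in cKO saline. Control saline libraries held 150 to 166 scaled TPM and libraries labelled control cocaine 58.5 to 87.9. In saline, where some tags disagree, the levels followed the titles. Control saline replicates 3 and 4, tagged Maged1cKO, were at 150 and 151, and cKO saline replicates 1 and 2, tagged Maged1 Loxp, at 78.0 and 76.6. Both libraries labelled cKO cocaine therefore stood at the control saline level and above every cKO saline library, with a rise of 1.18 on the log2 scale (standard error 0.13, adjusted p = 0.000242) against cKO saline and a change of 0.07 (adjusted p = 0.746) against control saline. This goes against the label, and directions are drawn from labels throughout. Because of this, values against control saline, a comparison that shares the libraries labelled cKO cocaine, are given for many of the genes. Usp7 was at 18.5 and 18.4 scaled TPM against 20.7, 20.3, 19.9 and 19.6, a log2 fold change of -0.12 (adjusted p = 0.0703) that was not called.

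Among 12648 protein-coding genes tested, 227 (1.79%) rose and 108 (0.854%) fell in the libraries labelled cKO cocaine. Of the 227, 225 had both libraries labelled cKO cocaine above all 4 cKO saline libraries, and 107 of the 108 had both below. Groups did not overlap in 44% of all protein-coding genes in either direction. At an unadjusted p under 0.05 in limma, 2130 of the 12648 were higher and 2202 lower, and 6433 had positive log2 fold changes. Changes were small, with a median log2 size of 0.65 among rises and 0.62 among falls, and 30 rises and 11 falls were of 1 or more. Without replicate 2 of the libraries labelled cKO cocaine the counts were 119 and 61, and without replicate 1 they were 214 and 191. Against control saline in place of cKO saline, 168 (1.33%) were higher and 68 (0.538%) lower.

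**Figure D1:**
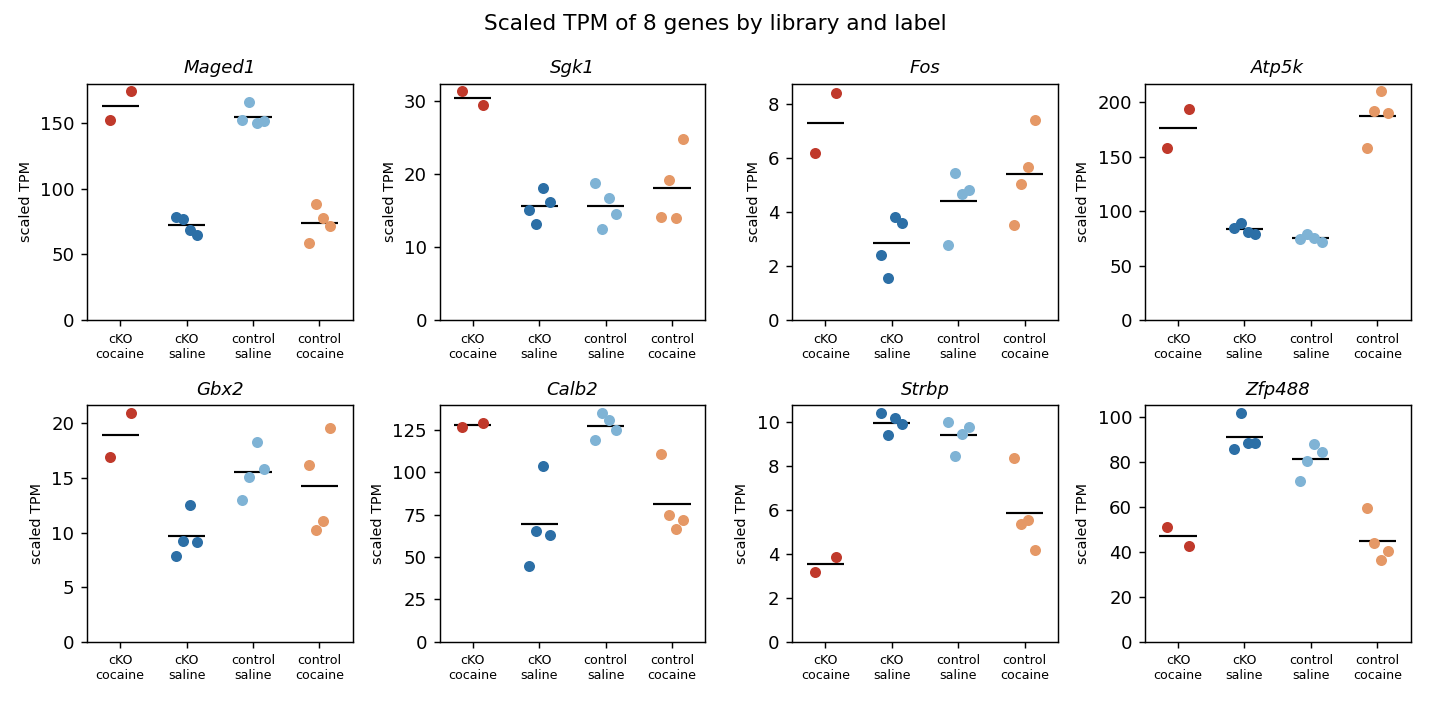
Scaled TPM (vertical axes, from 0) of 8 genes in each library, by label, with a bar at each group mean. Sgk1, Fos and Atp5k stand above both saline groups in the libraries labelled cKO cocaine, Maged1, Gbx2 and Calb2 stand at or near the control saline level and above cKO saline, and Strbp and Zfp488 stand below both saline groups.

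Some genes that glucocorticoid hormone is known to induce rose in the libraries labelled cKO cocaine. Of 22 tested, 8 rose (Plin4, Sgk1, Per1, Hif3a, Mt2, Nfkbia, Ddit4 and Mt1), none fell and the median log2 fold change was 0.42, beside 0.00 for all protein-coding genes and 1.79% called higher among them. Sgk1, a kinase that acts on ion channels and transporters and is a standard glucocorticoid target, was at 31.4 and 29.4 scaled TPM in the libraries labelled cKO cocaine and at 15.1, 13.2, 18.1 and 16.1 in cKO saline. The groups did not overlap (log2 fold change 0.94, standard error 0.21, adjusted p = 0.00847), and the value against control saline was 0.96. Plin4, a lipid droplet coat protein, was at 2.95 and 2.11 against 0.896, 0.205, 0.638 and 0.772 scaled TPM. It showed the largest rise of the list, 1.46 (standard error 0.31, adjusted p = 0.00712), and 1.18 against control saline. Hif3a, a hypoxia-pathway transcription factor, rose by 0.74 (adjusted p = 0.0242), and was lost without either library labelled cKO cocaine, with adjusted p-values of up to 0.119.

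The metallothioneins Mt1 and Mt2, which bind zinc and copper and respond to glucocorticoids, had the smallest standard errors among the called genes of this list. Mt1 was at 238 and 231 scaled TPM against 157, 149, 169 and 159, and Mt2 at 136 and 126 against 81.5, 74.7, 89.0 and 91.2. Neither gene overlapped between groups, with log2 fold changes of 0.56 (standard error 0.06, adjusted p = 0.000132) for Mt1 and 0.64 (standard error 0.10, adjusted p = 0.00165) for Mt2. Both kept the call without each of the 14 libraries, and against control saline they changed by 0.63 and 0.73. Nfkbia, the inhibitor of NF-kappa-B, rose by 0.60 and Ddit4, an inhibitor of mTOR signalling, by 0.57; both were named after their values were seen and were lost without replicate 2 of the libraries labelled cKO cocaine (adjusted p = 0.104 and 0.145). Fkbp5 and Tsc22d3, 2 further glucocorticoid targets named in the same way, did not pass, at 0.15 (adjusted p = 0.375) and 0.05 (adjusted p = 0.698). Nr3c1, the glucocorticoid receptor itself, was at 17.3 and 18.6 against 24.6, 23.7, 24.4 and 23.1 scaled TPM, a log2 fold change of -0.40 (adjusted p = 0.00488) that is under the minimum for a call.

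The list depends on single libraries. Of the 8 calls, 5 were kept without replicate 1 and 3 (Mt1, Mt2 and Plin4) without replicate 2 of the libraries labelled cKO cocaine, and 4 with the GC content and length trends removed (median 0.29). Sgk1 was lost without replicate 1 (adjusted p = 0.0551) or replicate 2 (adjusted p = 0.0599), the largest over the libraries left out in turn. Without replicate 1, Plin4 was lost as well (adjusted p = 0.0635). The summed level of the list's genes was 603 and 624.4 scaled TPM in the libraries labelled cKO cocaine and 412.1 to 465.2 in cKO saline. Control saline held 413.9 to 430.9 and the libraries labelled control cocaine 522.9 to 613. An exact permutation test of 2 libraries against 4 has 15 arrangements and cannot give a two-sided p under 0.133.

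**Figure D2:**
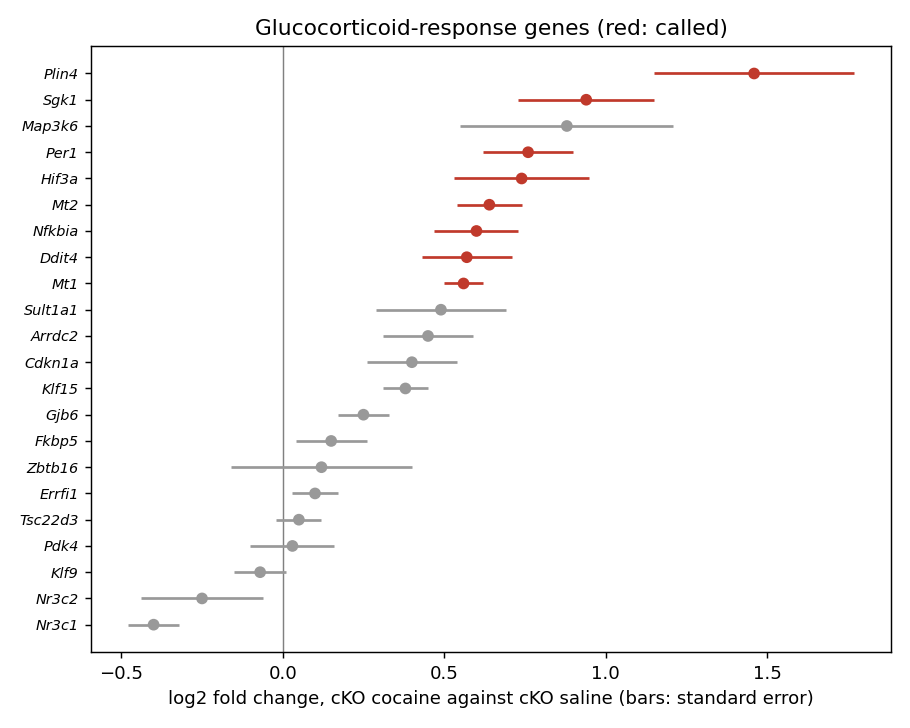
Log2 fold change of each of 22 glucocorticoid-response genes in the libraries labelled cKO cocaine against cKO saline (horizontal axis), with bars of 1 standard error and called genes in red. The 8 called genes lie from 0.56 (Mt1) to 1.46 (Plin4), and the receptor gene Nr3c1 lies lowest at -0.40.

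The promoter of Sgk1 is shown because it holds the palindrome to which the glucocorticoid receptor is known to bind. The 11 motifs searched here were chosen after values were seen. Searches cover both strands from 250 bases before to 50 after each of 32851 RefSeq transcript starts (GRCm38.p6), and find letters, not sites in use. The palindrome, AGAACA and TGTTCT 3 bases apart, was in 0.00913% of all promoters and in that of 1 of 20 list members with a promoter, Sgk1, at 1 of its 6 listed starts. A looser form, AGAACA and TGTNCN 3 bases apart, contains the palindrome and was in 0.14%, again with Sgk1 as the only match among members. The stretch below lies on the plus strand at chr10:21993690-21993839, from 200 to 51 bases before that start, inside introns of longer Sgk1 transcripts. The palindrome, from -189 to -175, is in capitals.
Sgk1: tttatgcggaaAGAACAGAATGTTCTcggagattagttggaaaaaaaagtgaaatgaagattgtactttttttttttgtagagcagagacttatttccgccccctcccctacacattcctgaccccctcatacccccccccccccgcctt

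Circadian clock genes overlap with the glucocorticoid list through Per1. Of 21 tested, 4 rose (Per1, Per2, Nr1d1 and Ciart), none fell, and the median was 0.12. Per1, a core repressor of the clock that also responds to hormone and activity, was at 17.6 and 21.9 scaled TPM against 10, 11.9, 13 and 10.9. The groups did not overlap (log2 fold change 0.76, standard error 0.14, adjusted p = 0.00297), and the call was lost without replicate 2 of the libraries labelled cKO cocaine (adjusted p = 0.0597). Against control saline Per1 changed by 0.57 and was called. Per2, its paralog, rose by 0.56 (adjusted p = 0.00135) and Nr1d1, the repressor REV-ERB-alpha, by 0.53 (adjusted p = 0.0023). Without that replicate, 1 clock gene was called, and without cKO saline replicate 1, 2 were.

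Ciart, a repressor of the CLOCK and BMAL1 activators, was at 7.42 and 9.19 scaled TPM against 4.27, 5.68, 6.29 and 5.15. The rise of 0.60 (standard error 0.16, adjusted p = 0.0216) was lost without replicate 2 of the libraries labelled cKO cocaine (adjusted p = 0.216) or without cKO saline replicate 1, and the value against control saline was 0.50 (adjusted p = 0.0543). Its promoter is shown because it carries 3 copies of the E-box CACGTG, the element bound by those activators, at -116, -58 and -44. CACGTG was in 7.15% of all promoters and in 9.64% of those of tested genes. It was found in 5 of 18 clock genes (Per1, Cry1, Tef, Ciart and Bhlhe41), and a pair of CACGTG 5 bases apart in 0% of all promoters. The stretch runs from 150 to 31 bases before the RefSeq start on the minus strand, chr3:95882259-95882378, with the E-boxes in capitals.
Ciart: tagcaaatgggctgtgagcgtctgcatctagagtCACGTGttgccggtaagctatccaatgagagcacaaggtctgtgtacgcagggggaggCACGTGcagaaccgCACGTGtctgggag

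Immediate early genes, transcription factors and signalling genes that neuronal firing switches on within minutes, gave 3 rises (Fos, Egr1 and Nr4a1) and no fall among 19 tested. The median was 0.20 and 18 of the 19 log2 fold changes were positive, beside 6433 of 12648 for all protein-coding genes. Fos was at 6.21 and 8.43 scaled TPM in the libraries labelled cKO cocaine and at 2.40, 1.55, 3.83 and 3.60 in cKO saline. No library overlapped (log2 fold change 1.27, standard error 0.32, adjusted p = 0.0163). Control saline libraries ranged from 2.79 to 5.46, and the log2 fold change against them was 0.68 (adjusted p = 0.182). Egr1, a zinc finger factor of the same response, was at 13.6 and 12.9 against 7.93, 8.43, 8.36 and 8.78 (log2 fold change 0.63, adjusted p = 0.00542) and kept the call without each of the 14 libraries. Nr4a1, an orphan nuclear receptor, was at 4.90 and 6.98 against 3.56, 3.54, 3.77 and 3.93 (log2 fold change 0.60, adjusted p = 0.0130). Against control saline Egr1 changed by 0.60 and was called, and Nr4a1 by 0.39 (adjusted p = 0.0897) and was not.

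Fos (adjusted p = 0.160) and Nr4a1 (adjusted p = 0.204) were lost without replicate 2 of the libraries labelled cKO cocaine, and 1 call of the list was then left. Homer1, a postsynaptic scaffold of the list whose value was looked up afterwards, had the lowest change, -0.28 (adjusted p = 0.0824). Klf2, a zinc finger factor named after its values were seen, was at 4.17 and 3.64 scaled TPM against 1.93, 2.60, 1.48 and 2.32 (log2 fold change 0.79, adjusted p = 0.0359) and was lost without either library labelled cKO cocaine. Of all promoters, 20.8% hold TGACG, the core of the CREB element, and of those of tested genes 30.3% do. It was found in 11 of 16 immediate early genes, Fos and Nr4a1 included. TGACGCAA, which contains TGACG (0.49% of all), and a single spelling of the serum response CArG box (0.0639% of all) were in none of the 16.

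Later activity genes did not move together. Of 19 tested, 2 rose, 1 fell and the median was -0.05. Gadd45g, a growth arrest gene, rose by 0.63 (adjusted p = 0.0224) and Sik1, a kinase that holds back CREB coactivators, by 0.60 (adjusted p = 0.0148). Against control saline the values were 0.65 (adjusted p = 0.0254) for Gadd45g and 0.08 (adjusted p = 0.777) for Sik1, whose control saline range of 5.39 to 6.43 scaled TPM includes both libraries labelled cKO cocaine (6.16 and 6.35). Rgs4, which shortens G protein signalling, was at 49.4 and 68.6 scaled TPM against 91.2, 86.4, 88.1 and 69.5, a fall of -0.51 (adjusted p = 0.0436) that was lost without replicate 1 of the libraries labelled cKO cocaine (adjusted p = 0.371). Control saline held 48.8 to 70.0, a range that includes both libraries labelled cKO cocaine. Gadd45g was lost without replicate 2 (adjusted p = 0.274) or without cKO saline replicate 1 or 3. Sik1 was lost without either library labelled cKO cocaine, with adjusted p-values of up to 0.111.

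Genes for secreted peptides gave 2 of the larger rises, Ucn and Cartpt. Of 31 peptide precursors tested, 3 rose (Ucn, Cartpt and Chgb), none fell and the median was 0.17. Cartpt, the precursor of the peptide CART that was first described as induced by psychostimulants, was at 29.5 and 35.8 scaled TPM in the libraries labelled cKO cocaine and at 6.02, 5.80, 6.18 and 3.88 in cKO saline. No library overlapped (2.49 on the log2 scale, standard error 0.62, adjusted p = 0.0143). Ucn, the stress peptide urocortin, was at 3.63 and 3.94 against 0.0774, 0, 0.337 and 0.177 (log2 fold change 2.75, standard error 0.74, adjusted p = 0.0214). Control saline libraries spread widely for both, from 5.93 to 50.4 for Cartpt and from 0.0736 to 5.75 for Ucn, and neither was called against control saline. Each was lost when either library labelled cKO cocaine was left out, with adjusted p-values of up to 0.116 for Cartpt and 0.133 for Ucn.

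Chgb, chromogranin B, a protein of the dense-core granules that store peptides, behaved differently. It was at 60.2 and 73.0 scaled TPM in the libraries labelled cKO cocaine and at 37.1, 34.3, 40.3 and 35.6 in cKO saline, with 34.1 to 37.5 in control saline. Both libraries labelled cKO cocaine lay above all 8 saline libraries. The rise of 0.84 (standard error 0.10, adjusted p = 0.000346) kept its call without each of the 14 libraries, and the libraries labelled control cocaine changed by 0.93 against control saline. Pth2, the precursor of the peptide TIP39 and not on the list, was at 2.09 and 0.983 against 0.187, 0, 0.509 and 0 (log2 fold change 1.60, adjusted p = 0.0200) and was lost without either library labelled cKO cocaine, with adjusted p-values of up to 0.166.

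The 3 called peptide genes are shown together because each promoter holds TGACGTCA, the full cAMP response element that CREB binds. This motif, which contains TGACG, was in 1.79% of all promoters and in 2.99% of those of tested genes. Among 26 peptide precursors with a promoter 5 held it, the others being Sst and Scg2, which were not called. The 30 bases around each match are given 5′ to 3′ on the gene's own strand, with the element in capitals. They lie at chr13:99900777-99900806 (minus) for Cartpt, chr5:31138921-31138950 (minus) for Ucn and chr2:132781559-132781588 (plus) for Chgb in GRCm38.p6. The elements begin 112, 44 and 72 bases before the RefSeq starts, and those of Cartpt and Chgb lie in the 5′ UTR of a longer transcript of the GENCODE annotation.
Cartpt: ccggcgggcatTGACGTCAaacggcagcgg
Ucn: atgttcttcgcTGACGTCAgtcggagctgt
Chgb: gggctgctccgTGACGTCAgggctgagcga

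Of 31 peptide receptors tested, 3 rose, none fell and the median was 0.11. Nmbr, the neuromedin B receptor, was at 2.48 and 3.30 scaled TPM against 0.702, 1.01, 1.85 and 1.02 (log2 fold change 1.08, standard error 0.27, adjusted p = 0.0165). Galr1, a galanin receptor, rose by 0.63 (adjusted p = 0.0331). Oprm1, the mu opioid receptor, was at 14.7 and 16.5 against 9.64, 11.3, 11.2 and 10.4 (log2 fold change 0.54, adjusted p = 0.0177). No receptor call was left without replicate 2 of the libraries labelled cKO cocaine, when the adjusted p-values were 0.160 for Nmbr, 0.212 for Galr1 and 0.161 for Oprm1. Against control saline the changes were 0.28, 0.03 and 0.21, and none of the 3 was called.

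Of 27 genes that mark thalamic identity, 2 rose against cKO saline and none fell. The median was 0.30, and without replicate 2 of the libraries labelled cKO cocaine it was 0.15 with no call kept. With GC content and length trends removed no call was kept either, with a median of 0.33. Gbx2, a homeobox factor needed to form thalamic neurons, was at 16.9 and 21 scaled TPM against 7.87, 9.21, 12.5 and 9.16 (log2 fold change 0.94, standard error 0.24, adjusted p = 0.0151). Calb2, the calcium buffer calretinin of midline thalamus and habenula, was at 127 and 129 against 44.9, 65.4, 104 and 63.0 (log2 fold change 0.94, standard error 0.25, adjusted p = 0.0209). Neither overlapped between groups. Control saline held 13 to 18.3 of Gbx2 and 119 to 135 of Calb2, so that the libraries labelled cKO cocaine stood above cKO saline but changed by 0.28 and 0.01 against control saline. Gbx2 was lost without replicate 2 (adjusted p = 0.153) and Calb2 without either library labelled cKO cocaine, with adjusted p-values of up to 0.128. Slc17a6, the Vglut2 gene itself, named after its values were seen, was at 84.2 and 90.6 against 85.6, 76.8, 99.1 and 72.2 (log2 fold change 0.08, adjusted p = 0.778).

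Markers of the habenula, a neighbouring structure whose list shares Calb2, moved in the same direction. Striatum markers had a median of -0.05 and those of cortex and hippocampus one of -0.04. The summed level of 20 habenula markers was 453.1 and 468.6 scaled TPM in the libraries labelled cKO cocaine, 266.6 to 376 in cKO saline and 444.2 to 483.1 in control saline. Of the 20, 18 had positive log2 fold changes and 1, Calb2, was called, with a median of 0.54. This median was 0.26 without replicate 1 and 0.92 without replicate 2 of the libraries labelled cKO cocaine, and 0.28 without cKO saline replicate 1. Against control saline the median was -0.35. Pou4f1, the defining habenula transcription factor, named after its values were seen, overlapped between groups at 4.12 and 1.39 against 0.414, 2.06, 1.17 and 3.94. No habenula marker was below 1 scaled TPM in all 6 libraries. The 12 markers of thalamic glutamatergic neurons summed to 707.1 and 839.4 against 611.2 to 815.9. What part the habenula share has in the rises of Calb2, Gbx2, Cartpt or the peptide receptors was not tested.

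Genes of motile cilia, the beating cilia of ependymal cells that line the ventricles, had the highest median of any list, 0.77. All 24 tested had positive log2 fold changes, beside 6433 of 12648 protein-coding genes, and 5 rose (Zmynd10, Rsph1, Ccdc40, Drc1 and Ccdc39). Zmynd10, needed to assemble dynein arms, was at 1.33 and 1.57 scaled TPM against 0, 0.356, 0.318 and 0.534 (log2 fold change 1.33, standard error 0.38, adjusted p = 0.0277). Rsph1, a radial spoke protein, was at 4.29 and 4.67 against 0.669, 1.92, 2.15 and 1.98 (log2 fold change 1.26, standard error 0.38, adjusted p = 0.0359). Ccdc40 and Drc1, which set up the inner dynein arms, rose by 0.82 each. Rfx2, a transcription factor for cilia genes that was named after its values were seen, rose by 0.74 (adjusted p = 0.0329).

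Against control saline the same list had a median of -0.06 and no call. Its summed level was 75.3 and 53.9 scaled TPM in the libraries labelled cKO cocaine, 11.4 to 43.4 in cKO saline and 60.7 to 70.1 in control saline. Of the 30 genes on the list, Cfap126 was listed at 0 in all 6 libraries and 7 stayed under 1. Foxj1, the master regulator of motile cilia, named after its values were seen, was at 8.18 and 5.96 against 2.38, 4.75, 3.64 and 5.43 (log2 fold change 0.77, adjusted p = 0.110). The X-box of RFX factors was in 0.451% of all promoters and in 1 of 20 on the list, that of Pifo, which was not called. No call of the list was left without replicate 1 or replicate 2 of the libraries labelled cKO cocaine, or without cKO saline replicate 1, the library with the lowest sum. For Drc1 the adjusted p without replicate 1 was 0.219, the highest of the 5.

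**Figure D3:**
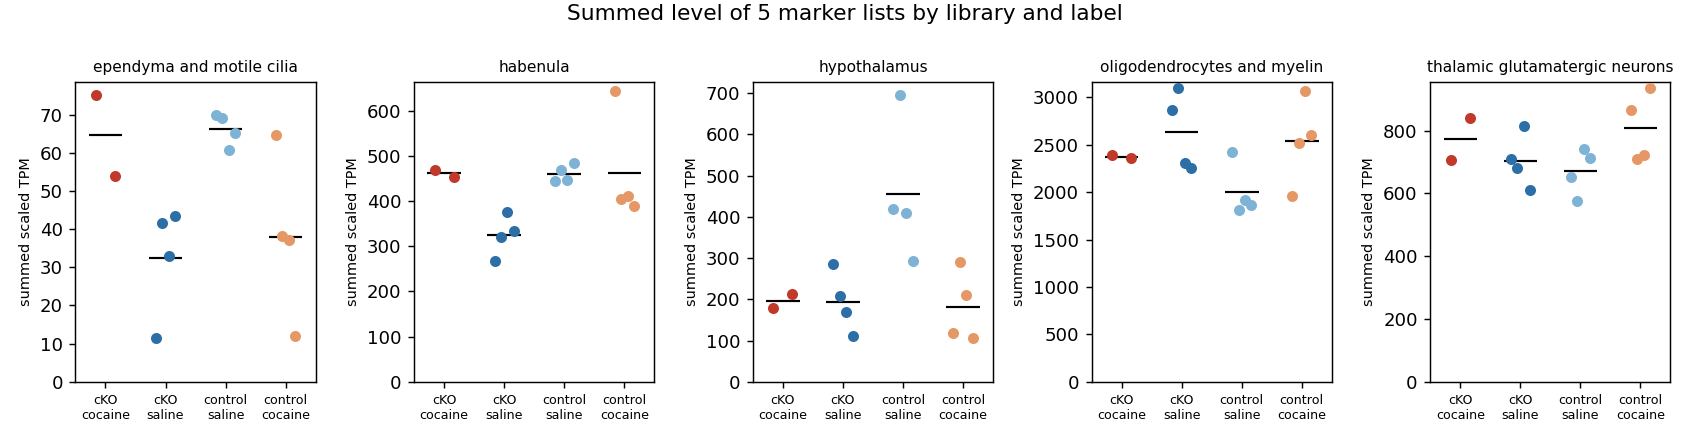
Summed scaled TPM (vertical axes, from 0) of 5 marker lists in each library, by label, with a bar at each group mean. Cilia and habenula sums are higher in the libraries labelled cKO cocaine than in every cKO saline library and near control saline, while hypothalamus, myelin and thalamic glutamatergic sums of the 2 cKO groups overlap.

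Other cell types differed less. The 19 hypothalamus markers tested gave no call in limma, with 1 higher and 0 lower at an unadjusted p under 0.05, and their sum was 179.3 and 212.6 scaled TPM against 111.8 to 286.5 in cKO saline and 292.7 to 696.5 in control saline. Oxt, oxytocin, named after its values were seen, was at 8.74 and 52.8 against 2.36, 2.57, 24.5 and 0.578 (log2 fold change 2.5, adjusted p = 0.0808). The 22 myelin genes had a median of -0.21, and Aspa, the enzyme that degrades N-acetylaspartate in oligodendrocytes, fell by 0.71 on the log2 scale (7.46 and 6.78 against 14, 13.2, 10.3 and 10.7 scaled TPM, adjusted p = 0.0123). Control saline held 8 to 8.88 of Aspa, and against control saline the myelin median was 0.13. Mbp, myelin basic protein, was at 1028 and 1070 against 1173, 1231, 902 and 899 scaled TPM, and was named after its values were seen and not called. Aspa was lost without replicate 2 of the libraries labelled cKO cocaine (adjusted p = 0.115). Choroid plexus markers, of which 11 of 17 stayed under 1 scaled TPM in all 6 libraries, summed to 16.6 and 17.2 against 7.01 to 50.3, with 22.3 to 1493 in control saline.

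**Figure D4:**
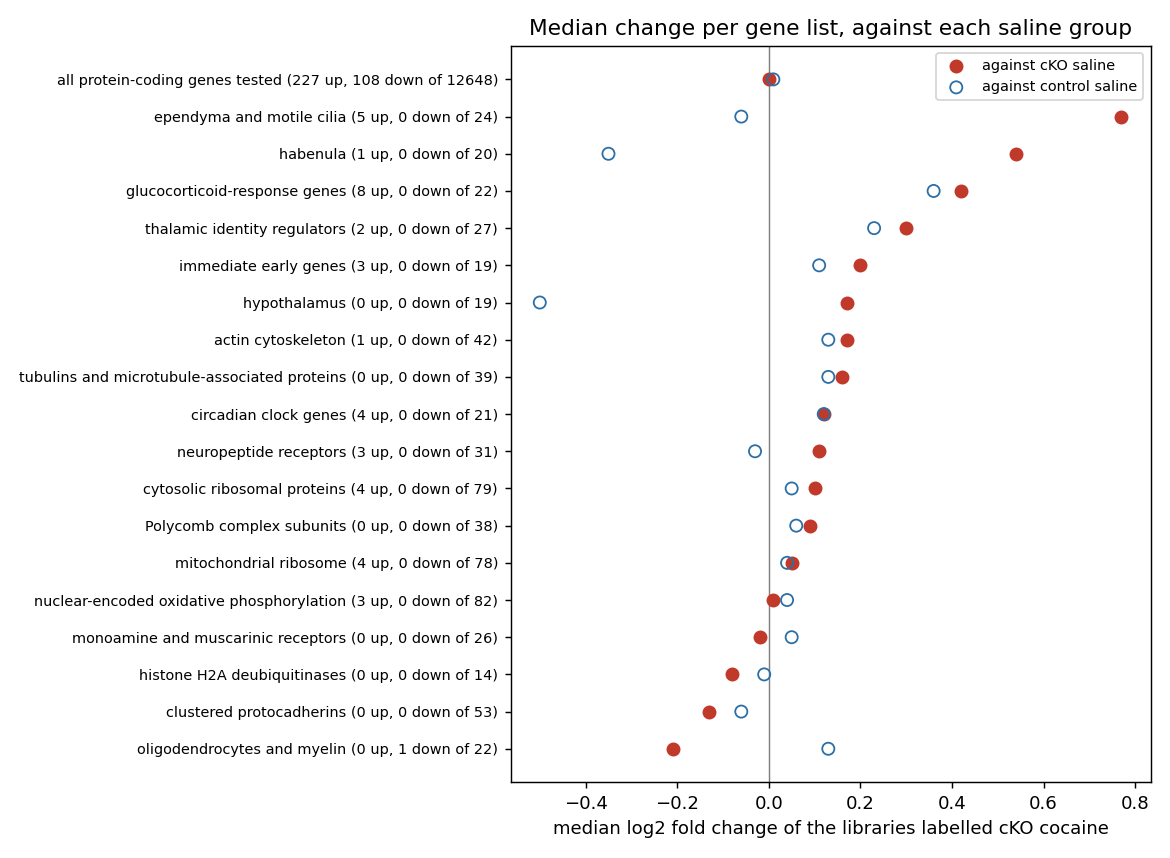
Median log2 fold change (horizontal axis) of the libraries labelled cKO cocaine for each gene list, against cKO saline (filled red) and against control saline (open blue), which share the cocaine libraries. The glucocorticoid list lies to the right against both saline groups (0.42 and 0.36), and cilia (0.77 and -0.06) and habenula (0.54 and -0.35) lie to the right against cKO saline only.

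Several of the smallest adjusted p-values belonged to genes for the ATP synthase, ribosome function and the nuclear matrix. Atp5k, subunit e of the mitochondrial ATP synthase, was at 158 and 194 scaled TPM in the libraries labelled cKO cocaine and at 84.6, 89.4, 80.7 and 78.7 in cKO saline. Both libraries lay above all 8 saline libraries, at 1.07 on the log2 scale (standard error 0.10, adjusted p = 0.000125) and 1.22 against control saline. Ccdc124, a ribosome-binding protein, was at 50.2 and 48.9 against 28.3, 28.6, 28.9 and 28.1 (log2 fold change 0.79, standard error 0.06, adjusted p = 1.93e-05). Atpif1, the inhibitor of the ATP synthase, was at 41.8 and 40.2 against 24.6, 24.5, 25.6 and 21.9 (log2 fold change 0.75, adjusted p = 2.72e-05). Edf1, a coactivator that also senses collided ribosomes, rose by 0.60, and Safb, a nuclear matrix and RNA-binding protein, by 0.77 (adjusted p = 0.000108 each). These 5 kept their calls without each of the 14 libraries. The libraries labelled control cocaine changed by 1.31, 0.80, 0.58, 0.64 and 0.49 in these genes against control saline.

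The wider families of these genes had few calls and medians of 0.01 to 0.10. Of 82 nuclear-encoded oxidative phosphorylation genes, 3 rose (Atp5k, Cox6a2 and Ndufb7) and none fell, with a median of 0.01. Cox6a2, a cytochrome oxidase subunit, rose by 0.70 (adjusted p = 0.00580) and Ndufb7, of complex I, by 0.52 (adjusted p = 0.000943). Without replicate 2 of the libraries labelled cKO cocaine both were lost, Cox6a2 by its adjusted p of 0.0714 and Ndufb7 by its fold change. Among 79 cytosolic ribosomal proteins 4 rose, with a median of 0.10, and among 78 mitochondrial ribosomal proteins 4 rose, with a median of 0.05. The shares called in the 3 families were 3.66%, 5.06% and 5.13%, beside 1.79% called higher among all protein-coding genes. At an unadjusted p under 0.05 in limma, 22, 32 and 19 members were higher and 25, 9 and 7 lower. Of all 12648 protein-coding genes, 2130 were higher and 2202 lower. Rpl21 was at 85.1 and 89.9 scaled TPM against 58.0, 51.5, 57.8 and 53.5 (log2 fold change 0.66, adjusted p = 0.000483), and Rpl19 rose by 0.55 (adjusted p = 0.000354). Mrpl39 had the largest mitochondrial ribosome change, 1.83 (adjusted p = 0.0414), from 0, 0, 0.754 and 0 to 1.67 and 1.80, and was lost in 9 of 14 fits without a library. It passed the filter only through libraries labelled cocaine, so its low saline level is no further support. Ribosomal protein genes have many processed copies, between which reads could have been split.

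Of 65 splicing factors 3 rose, none fell and the median was 0.00. Sf3a2, of the U2 particle, was at 14.9 and 15.6 scaled TPM against 7.09, 8.12, 7.64 and 8.38 (log2 fold change 0.93, adjusted p = 0.000197). Snrnp70 and Snrpa, proteins of the U1 particle, rose by 0.64 and 0.56 (adjusted p = 0.000242 and 0.000698), and all 3 kept the call without each library. With the GC content and length trends removed 1 of the 3 calls, that of Sf3a2, was kept. Hypk, a chaperone-like partner of the N-terminal acetylase, named after its values were seen, was at 24.1 and 30.1 against 8.56, 10.1, 12.4 and 8.92 (log2 fold change 1.40, adjusted p = 0.00174). In the control label it changed by 1.38.

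Cytoskeleton genes gave few calls. Tmsb10, thymosin beta 10, which binds actin monomers, was at 315 and 312 scaled TPM against 156, 168, 177 and 144 (log2 fold change 0.96, standard error 0.12, adjusted p = 0.000392), and was the only call among 42 actin genes (median 0.17). In the control label it changed by 1.07. Of 39 tubulins and microtubule-associated proteins none was called in limma, with 18 higher and 2 lower at an unadjusted p under 0.05 and a median of 0.16. Of all 12648 protein-coding genes, 2130 were higher and 2202 lower at that p. Arl3, a small GTPase that unloads cargo in primary cilia, was at 54.5 and 62.3 against 34.6, 32.2, 32.7 and 32.2 (log2 fold change 0.82, adjusted p = 0.000346) and was the only call among 58 primary cilium genes. Of 53 genes of the vesicle release machinery 2 rose, the vesicle protein Syn1 by 0.51 (adjusted p = 0.00328) and the vesicle GTPase Rab3b by 1.07 (adjusted p = 0.0127). Syn1 was lost without replicate 2 of the libraries labelled cKO cocaine (adjusted p = 0.0625) and Rab3b without either, with adjusted p-values of up to 0.0856. Against control saline Syn1 changed by 0.56 and Rab3b by 0.14 (adjusted p = 0.774), with control saline at 3.41 to 5.24 scaled TPM of Rab3b and the libraries labelled cKO cocaine at 4.92 and 4.16.

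Among 24 metallothionein and antioxidant genes 4 rose and none fell, with a median of 0.10. Beside Mt1 and Mt2 these were Gpx3, the secreted glutathione peroxidase (13.8 and 13.5 against 7.57, 5.91, 7.89 and 3.76 scaled TPM, log2 fold change 1.11, adjusted p = 0.0197), and Txnip, the thioredoxin inhibitor (7.50 and 5.94 against 3.04, 3.68, 3.45 and 4.73, log2 fold change 0.78, adjusted p = 0.00377). In control saline Gpx3 was at 9.54 to 16.7 and Txnip at 4.5 to 6.14, so that the Gpx3 levels of the libraries labelled cKO cocaine lay within the control saline range and 1 of their 2 Txnip levels did. Gpx3 was lost without either library labelled cKO cocaine, with adjusted p-values of up to 0.116. The metal response core TGCGCNC is in 15.4% of all promoters, in 27% of those of tested genes and in 5 of the 19 promoters of this list, those of Mt1, Mt2 and Txnip among them, and the looser TGCNCNC, which contains it, in 51%.

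Of 44 matrix genes 4 rose, none fell and the median was 0.08. Fbln1, the matrix protein fibulin 1, was at 9.74 and 10 scaled TPM against 3.24, 4.18, 6.62 and 5.13 (log2 fold change 1.01, adjusted p = 0.00721), with 6.90 to 9.51 in control saline, and was lost without replicate 2 of the libraries labelled cKO cocaine (adjusted p = 0.0668). Thbs2, thrombospondin 2, rose by 0.56 (adjusted p = 0.00377) and kept its call without each library, but changed by 0.11 (adjusted p = 0.519) against control saline. Agt, the astrocyte gene for angiotensinogen, was at 71.8 and 80.0 against 54.1, 47.5, 50.2 and 48.7 (log2 fold change 0.59, adjusted p = 0.00174) and was the only call among 18 astrocyte markers, with 0.30 (adjusted p = 0.0569) against control saline. Maob, the astrocyte-rich monoamine oxidase B that degrades dopamine, was at 21.4 and 24.9 against 12.2, 12, 16.2 and 12.9 (log2 fold change 0.78, adjusted p = 0.0109). Control saline held 18.7 to 25.1 of Maob, and the call was lost without replicate 2 (adjusted p = 0.120). Apoe, Pnpla2 and Plin2 were each named after their values were seen, and none was called against control saline. Apoe, the lipid carrier, was at 770 and 831 against 558, 570, 486 and 614 (log2 fold change 0.53, adjusted p = 0.00104), Pnpla2, a triglyceride lipase, rose by 0.51 (adjusted p = 0.00499) and Plin2, a droplet coat protein, by 0.51 (adjusted p = 0.0179). Each of these 3 lies near the fold minimum and was lost without some library, Apoe by its fold change alone.

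Calls near the threshold came from 4 further lists. Among 68 heat shock and DnaJ chaperones 3 rose, none fell and the median was 0.06. Bag3, a partner of Hsp70, was at 3.33 and 3.03 scaled TPM against 2.30, 1.85, 1.59 and 2.35 (log2 fold change 0.55, adjusted p = 0.0134), with adjusted p-values of up to 0.0895 when a library was left out. Grm2, a presynaptic metabotropic glutamate receptor, was the only call among 40 glutamate receptor and scaffold genes (median -0.07), at 21 and 23 against 11.4, 14.6, 15.3 and 20.4 (log2 fold change 0.53, adjusted p = 0.0470). It was lost in 9 of the 14 fits without a library, with adjusted p-values of up to 0.255, and changed by 0.28 (adjusted p = 0.308) against control saline. H1f10, a linker histone variant, rose by 0.60 (adjusted p = 0.00785) and was lost without replicate 2 of the libraries labelled cKO cocaine (adjusted p = 0.0742). Among 14 markers of the paraventricular and midline thalamus, 2 rose, Calb2 among them, none fell and the median was 0.24. Against control saline the median was 0.0 and neither of the 2 was called. Neither call was kept with the GC content and length trends removed.

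The largest rises of all were of genes with low levels or many copies. Gm20594, on chromosome 6 from 79817916 to 79818364 and annotated as protein-coding, was at 61077 and 71818 scaled TPM against 11447, 12802, 9342 and 9653 (log2 fold change 2.63, standard error 0.21, adjusted p = 3.05e-05). It kept the call without each library but lost it with quantile scaling and with no filter on low values, and reads could be split among its copies. Gm20878, of a multicopy family, was at 5.29 and 2.52 and listed at 0 in all saline libraries, and was lost without replicate 1. It passed the filter only through libraries labelled cocaine, with 4.06 in control cocaine replicate 4, so its level of 0 in saline is no further support. Lars2, the mitochondrial leucine tRNA synthetase, was at 18.6 and 59.9 against 4.55, 4.83, 4.97 and 5.04 (log2 fold change 2.67, adjusted p = 0.00974) and was lost without replicate 2 (adjusted p = 0.156). Cd300lf, a myeloid receptor, was at 1.19 and 1.84 against 0.124, 0.174, 0.141 and 0.0910 (log2 fold change 1.65, adjusted p = 0.000354) and kept its call. Cd300lf too passed the filter only through libraries labelled cocaine, so its low saline level is no further support. In the control label Gm20594, Lars2 and Cd300lf changed by 2.64, 2.17 and 1.36. Mbd6, Emsy and Fam166c, at 1.98, 1.58 and 1.45, lost theirs without either library labelled cKO cocaine, with adjusted p-values of up to 0.269.

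Fewer protein-coding genes were called lower than higher, although with no fold minimum 1355 were lower and 1211 higher. Strbp, a double-stranded RNA-binding protein of neurons and testis, was at 3.19 and 3.88 scaled TPM in the libraries labelled cKO cocaine and at 10.4, 9.40, 10.2 and 9.91 in cKO saline. Both lay below all 8 saline libraries (log2 fold change -1.38, standard error 0.18, adjusted p = 0.000483), and the call held without each library. Moap1, a regulator of apoptosis, was at 3.07 and 3.45 against 8.80, 8.01, 7.62 and 6.75 (log2 fold change -1.14, adjusted p = 0.00107). Zfp488, a zinc finger factor of oligodendrocyte differentiation, was at 51.3 and 42.5 against 85.8, 102, 88.6 and 88.5 (log2 fold change -0.95, adjusted p = 0.00165). It was the only call among 11 oligodendrocyte precursor markers. Hint3, a nucleotide hydrolase, fell by 0.57 on the log2 scale (14.4 and 12.8 against 21.3, 19.3, 20.6 and 20.8, adjusted p = 0.000123), and without replicate 2 its fold change was under the minimum.

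The remaining large falls were less sure. Hist1h4m (-1.46), Olfr613 (-1.06), Psg28 (-1.02) and Gm2004 (-0.99) kept their calls without each library, but they belong to multigene families between whose copies reads could be split. Entpd4 (-2.25), Fam118a (-1.83) and Aasdh, listed at 0 in both, rest on levels near 0 in the libraries labelled cKO cocaine, and each lost its call without replicate 2 and without several cKO saline libraries, with adjusted p-values of up to 0.32, 0.364 and 0.159. Entpd4 and Aasdh lost theirs without replicate 1 too. Ptpn3, a tyrosine phosphatase, was at 2.03 and 1.2 against 6.22, 5.00, 6.39 and 4.95 (log2 fold change -1.56, adjusted p = 0.0137), and was likewise lost (adjusted p = 0.151), as were 4930512M02Rik (-1.35, adjusted p = 0.115) and Klk14 (-1.02, adjusted p = 0.114).

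Single members of 3 other lists fell. Slc16a7, a lactate and pyruvate transporter of neurons, fell by 0.55 on the log2 scale (adjusted p = 0.00216), Kcnc2, a fast potassium channel, by 0.54 (adjusted p = 0.0151), and Kdr, the endothelial VEGF receptor, by 0.53 (adjusted p = 0.0396). Kcnc2 and Kdr were lost without either library labelled cKO cocaine, with adjusted p-values of up to 0.0901 and 0.167. Against control saline Slc16a7 (-0.36), Kcnc2 (-0.17) and Kdr (-0.49) were not called. Enzymes that build sugar chains on proteins, named after their values were seen, include Fut8, which adds core fucose (19.4 and 14.8 against 25.6, 27.0, 25.6 and 26.6, log2 fold change -0.61, adjusted p = 0.000587), and Fut9, which makes the Lewis X structure (8.74 and 8.97 against 14.6, 12.6, 13.6 and 13, log2 fold change -0.57, adjusted p = 0.000323). Fut9 kept its call without each library, and Fut8 without all but replicate 2, where its fold change fell under the minimum. With the GC content and length trends removed Fut9 changed by -0.36, and against control saline by -0.29, both under the minimum for a call. Mgat4c, an N-acetylglucosaminyltransferase, fell by 0.57 (adjusted p = 0.0148) and was lost without replicate 2 (adjusted p = 0.180).

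Several chromatin, receptor and signalling classes gave no call in limma. Their counts at an unadjusted p under 0.05 stand beside 2130 higher and 2202 lower of all 12648 protein-coding genes. None of 38 Polycomb complex subunits was called (13 higher and 11 lower at an unadjusted p under 0.05, median 0.09), nor any of 14 histone H2A deubiquitinases, Usp7 among them (2 and 3, median -0.08), or of 65 chromatin writers and erasers (14 and 7, median 0.05). No monoamine or muscarinic receptor of 26 was called (1 and 0, median -0.02). Drd1 and Drd2, the main dopamine receptors, were looked up afterwards. Drd1 was at 1.11 and 1.17 scaled TPM against 0.715, 2.51, 0.727 and 1.35, and Drd2 at 2.96 and 3.73 against 3.80, 4.21, 2.95 and 2.89, so both overlapped. The same held for 30 GABA and glycine genes (2 and 7, median -0.05), 44 genes of cAMP signalling (9 and 11, median -0.07), 53 clustered protocadherins (2 and 12, median -0.13), 65 axon guidance genes (4 and 4, median 0.02) and 24 genes of cholesterol synthesis (6 and 1, median 0.02).

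The control label offers the same contrast by title, but Maged1 changed by -1.08 in it and by 1.18 in the cKO label. A difference between the labels' cocaine effects therefore cannot be told apart here from one that follows genotype or Maged1 level. Between the libraries labelled control cocaine and control saline, 181 protein-coding genes (1.43%) were called higher and 145 (1.15%) lower. The difference between the labels' cocaine effects was tested as an interaction, and 108 protein-coding genes (0.854%) passed. The effect was the higher under the cKO label in 60 of them and the lower in 48. By adjusted p Maged1 came first, with a difference of 2.26 (standard error 0.16, adjusted p = 6.76e-05). Prag1, a pseudokinase scaffold, was at 9.32 and 10.2 scaled TPM against 5.72, 6.38, 5.42 and 5.69 in cKO saline, a rise of 0.70, and changed by -0.18 in the control label and by 0.29 against control saline. Tppp3, a tubulin polymerization protein, was at 45.4 and 41.1 against 27.6, 31.1, 31.6 and 32.2 (0.49, under the minimum for a call) and changed by -0.38. Cartpt, Calb2, Nmbr, Rab3b, Fbln1, Maob, Txnip, Galr1 and Thbs2, all higher in the cKO label, had negative values in the control label, from -1.60 for Cartpt to -0.48 for Txnip, and an interaction call each. For Sgk1 the interaction was 0.76 (adjusted p = 0.153) and for Fos 1.02 (adjusted p = 0.215), which does not show that the labels responded alike. The interaction count fell to 28 without cKO saline replicate 1 and rose to 232 without control cocaine replicate 1. With genotype taken from the tags it was 0. Each saline group then mixes libraries titled cKO and control, with Maged1 low and high, so this count is no check of the interaction.

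Longer noncoding RNAs and pseudogenes mostly fell where they changed. Of 594 tested, 5 (0.842%) rose and 45 (7.58%) fell, with a median log2 size of 0.85 among the falls. The examples were named after their values were seen. The lincRNA 4930470H14Rik was at 61.5 and 50.4 scaled TPM against 105, 132, 113 and 114 (log2 fold change -1.05, adjusted p = 0.000945). 4930519L02Rik was at 12.4 and 9.46 against 29.5, 32.5, 30.3 and 31.7 (log2 fold change -1.47, adjusted p = 0.000620), and 1700128F08Rik, a transcribed pseudogene, at 5.22 and 3.87 against 11.9, 14.9, 12.5 and 15.0 (log2 fold change -1.49, adjusted p = 0.000354). Gm17644 and 4930435F18Rik fell by 1.26 and 1.25 on the log2 scale. These 5 kept their calls without each library, and in the control label they changed by -0.94 to -1.28. Ipw, an imprinted transcript of the Prader-Willi region, passed the filter only through libraries labelled cocaine, so its low saline level is no further support. It was at 4.02 and 3.67 against 0.112, 0.362, 0.824 and 0 (log2 fold change 2.5, adjusted p = 0.0126), and the pseudogene Gm10052 rose by 2.85 (adjusted p = 0.0244). Both were lost without either library labelled cKO cocaine, with adjusted p-values of up to 0.0842 and 0.145.

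Short noncoding RNAs are kept apart, since a gene no longer than a fragment makes TPM uncertain. Of 219 tested, 15 (6.85%) rose and 13 (5.94%) fell, all without overlap between groups, with median log2 sizes of 4.60 and 1.66. Among all 219, called or not, groups did not overlap in 29 with the libraries labelled cKO cocaine higher and in 28 with them lower. The mature microRNAs of the 4 microRNA genes that the naming rule chose are shown because their genes' levels went from near 0 to above 20 scaled TPM or the reverse. Sequences are from RefSeq (GRCm38.p6), 5′ to 3′, with the seed, bases 2 to 8, in capitals, and no 2 share a seed. The libraries measure reads on the gene, not the mature form.
mmu-miR-666-5p: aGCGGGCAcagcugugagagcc
mmu-miR-666-3p: gGCUGCAGcgugaucgccugcu
mmu-miR-453: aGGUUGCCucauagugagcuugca
mmu-let-7d-5p: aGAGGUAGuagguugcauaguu
mmu-let-7d-3p: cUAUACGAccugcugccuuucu
mmu-miR-1966-3p: uUUCUGACucaacucucccuuag

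Mir666, the gene of miR-666, lies on chromosome 12 from 109717085 to 109717183. It was at 140 and 211 scaled TPM in the libraries labelled cKO cocaine and at 1.99, 2.12, 1.47 and 1.51 in cKO saline (log2 fold change 6.26, standard error 0.24, adjusted p = 2.67e-08), the smallest adjusted p-value of the named genes. Mir453, from 109735619 to 109735700 on the same chromosome, was at 24.8 and 28.2 and listed at 0 in all cKO saline libraries (adjusted p = 0.00533). Mir3072, from 109747878 to 109747960 and named after its values were seen, was at 16.5 and 9.00 and likewise listed at 0 (adjusted p = 0.00267). In the same stretch Mir1188, named afterwards as well, fell from 196, 205, 238 and 131 to 104 and 124 (log2 fold change -0.72, adjusted p = 0.0205), so that neighbouring genes differed in direction. Mir453 was lost without replicate 2 of the libraries labelled cKO cocaine (adjusted p = 0.0562) and Mir1188 without either, with adjusted p-values of up to 0.139.

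Mirlet7d, on chromosome 13 from 48536012 to 48536114, went the other way. Both libraries labelled cKO cocaine had it listed at 0, and it was at 88.0, 26.7, 63.5 and 65.6 scaled TPM in cKO saline (adjusted p = 0.00499, and 0.0519 without replicate 2). Mir1966, on chromosome 8 from 105615466 to 105615573, was listed at 0 in both and at 41, 65.9, 22.9 and 59.2 in cKO saline (adjusted p = 0.000961). Snora3, a guide RNA for pseudouridine in ribosomal RNA, on chromosome 7 from 109520120 to 109520251, was listed at 0 in both and at 25.5, 19.3, 46.6 and 4.83 in cKO saline (adjusted p = 0.000351). No fold change is given for these 3 genes, since the added 0.5 would set its size. Mir1966 and Snora3 kept their calls without each library. In the control label Snora3 changed by 0.03, and the interaction was called (adjusted p = 0.0118).

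Some of the changed short RNAs are abundant. Bc1, a neuronal cytoplasmic RNA that represses translation in dendrites, was at 61971 and 59247 scaled TPM against 11045, 13072, 11550 and 10501 (log2 fold change 2.40, standard error 0.13, adjusted p = 1.2e-06). Rn4.5s, the 4.5S RNA of rodents, was at 1255 and 1693 against 108, 154, 158 and 161 (log2 fold change 3.34, adjusted p = 1.02e-05). Rnu6, the U6 spliceosomal RNA, was at 536 and 819 against 1232, 1131, 1828 and 1660 (log2 fold change -1.11, adjusted p = 0.00380) and was lost without replicate 1 (adjusted p = 0.0513). Rpph1, the RNase P RNA, was at 26021 and 27736 against 23973, 23173, 21552 and 25145 (log2 fold change 0.20, adjusted p = 0.148). These 4 were named after their values were seen. Snord8, a small nucleolar RNA chosen by the naming rule, was at 70.2 and 42.3 against 0, 0.907, 1.47 and 0 (adjusted p = 0.0279) and was lost without either library labelled cKO cocaine, with adjusted p-values of up to 0.128.

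The protein-coding changes followed the base composition of the transcripts. Genes that rose had a median GC content of 54.3% and a median transcript length of 2415 bases, genes that fell had 41.8% and 3435 bases, and all tested had 49.8% and 3522 bases. Over 5 equal bins of GC content, from lowest to highest, the median log2 fold change was -0.18, -0.07, 0.02, 0.09 and 0.14. Of called genes, 13, 17, 38, 70 and 84 rose and 66, 18, 12, 5 and 3 fell in these bins. The control label showed medians of -0.10, -0.03, 0.03, 0.08 and 0.10, and cKO saline against control saline 0.05 to -0.04. With the GC content and length trends removed from each library, 127 protein-coding genes were higher and 50 lower, Strbp, Atp5k, Chgb, Sgk1, Fos, Cartpt and Maged1 among those still called. Egr1 (0.48) and Mt1 (0.46) fell under the fold minimum, and Gbx2 (adjusted p = 0.0677) and Calb2 (adjusted p = 0.0642) lost significance. What part base composition has in each change was not tested beyond this.

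**Figure D5:**
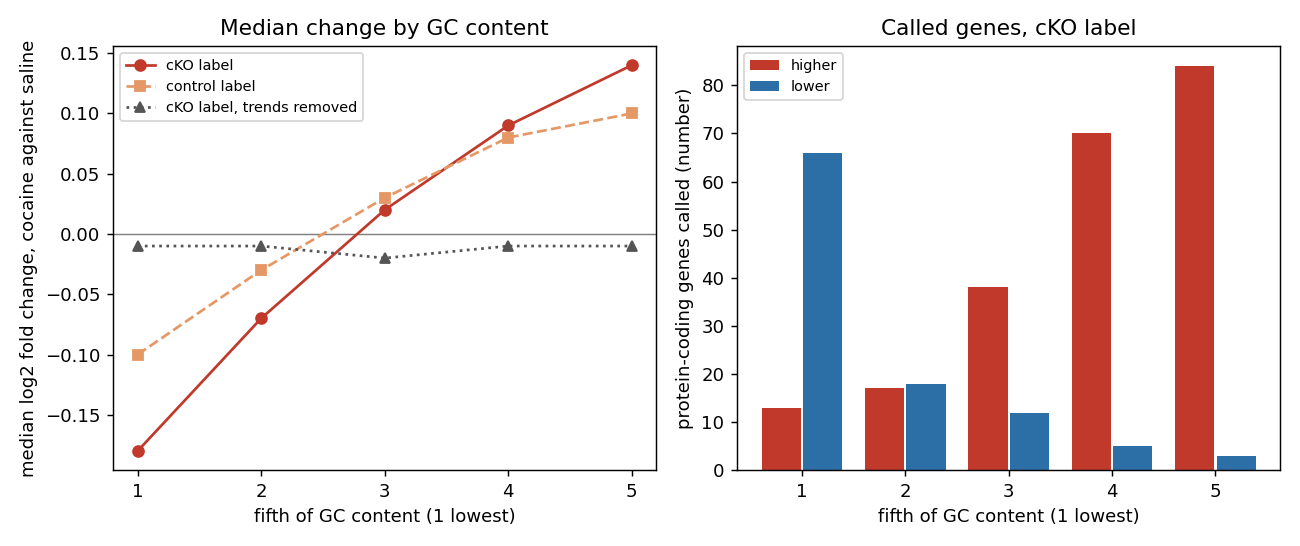
Left, median log2 fold change (vertical axis) of protein-coding genes by bin of transcript GC content (5 equal bins) (horizontal axis), for the cKO label, the control label and the cKO label with trends removed. Right, number of called genes per bin in the cKO label (bars from 0), where rises increase from 13 to 84 and falls decrease from 66 to 3.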

How the data were processed

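RNA of dissected thalamus, depleted of ribosomal RNA, was sequenced as stranded paired-end libraries. The authors mapped reads to GRCm38.p4 (mm10) with STAR 2.5.3a, quantified them with Salmon and deposited TPM per gene symbol, 1 table per library, made with tximport per the study's methods. The 2 tables with a decimal comma, recorded as unit other, were deposited by the authors as TPM too. Of 25080 symbols, 24240 matched GENCODE M21 and 752 RefSeq only, which gave class, coordinates and GC content.

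TPM were divided by unweighted TMM factors (30% of log ratios and 5% of means trimmed per side), 0.5 was added and log2 taken. limma 3.58.1 in R 4.3.3 fitted the mean of each of the 4 groups with an intensity trend to 13471 genes (10 residual degrees of freedom), with Benjamini-Hochberg adjustment. Short noncoding RNAs are annotated as such or are noncoding with transcripts under 300 bases. Other steps used Python 3.11.15, numpy 2.4.6, pandas 2.3.3, scipy 1.17.1 and matplotlib 3.10.9.

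Named genes are Maged1, Usp7, the 12 largest protein-coding rises and falls without overlap, up to 4 called members per list, the 3 largest rises and falls of short RNAs, the 3 smallest interaction p-values and the 6 smallest p-values among protein-coding genes. Some genes are not reported here. Other genes are said to be named after their values were seen. Gene lists, members and alternatives were chosen with earlier results of these data known. Alternatives were other scalings, pseudocounts of 0.1 and 1, other filters, the cKO libraries alone, no trend, a replicate block, GC content and length trends removed, genotype by tag, no fold minimum, control saline as reference and each library left out. Replicate numbers did not pair the libraries (mean correlation of deviations -0.0139 over 18 same-number pairs). Tested on simulated data for cKO cocaine against cKO saline, with 200 of 13471 genes changed by log2 0.7 or 1, the fit recovered 169 (84.5%) with 5 false calls and 190 (95%) with 2.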

Additional observations from a re-analysis of the deposited data

Results flagged for a closer look

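In 8 genes, 1 cKO saline library stood apart from the other 3 by the gap between it and its neighbour, which chance does in about 1 of 20 groups of this size. With 125 named genes, 8 is near that share, so these may be chance. The value of that library was 3.88 scaled TPM for Cartpt, 0.866 for Mbd6, 0.754 for Mrpl39, 0.669 for Rsph1, 40.3 for Snrnp70, 1.77 for Ccdc39, 108 for Rn4.5s and 24.5 for Oxt.

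In 17 named genes the difference between the labels' cocaine effects passed the interaction test in limma. In log2 units it was 10.39 for Oxt, 4.09 for Cartpt, 2.26 for Maged1, 1.86 for Rab3b, 1.62 for Calb2, 1.59 for Nmbr, 1.59 for Fbln1, 1.34 for Maob, 1.31 for Galr1, 1.26 for Txnip, 1.11 for Thbs2, 0.88 for Prag1 and 0.88 for Tppp3, with the cKO label the higher. Oxt and Tppp3 were not called in the cKO label alone, and Oxt, listed at 0 in 3 of 4 libraries labelled control cocaine, was named after its values were seen. The effect was lower in the cKO label for Rgs4 (-0.95) and for Camk4 (-0.84), a calcium-dependent kinase named after its values were seen. Among short RNAs it was 5.8 for Mir488, also named afterwards, and -5.28 for Snora3, and the added 0.5 sets part of these 2 sizes and of that for Oxt, since libraries of each gene are listed at 0. Maged1 goes against the cocaine labels in both genotypes, and these differences rest on those labels.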

How the results depend on the processing

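Only 2 libraries are labelled cKO cocaine, and depth is unknown from TPM, so limits of detection cannot be set. Of 96 called named genes, 33 kept the call without each of the 14 libraries. Replicate 2 of the libraries labelled cKO cocaine ended 57 calls when left out and replicate 1 ended 32, with 46 ended by removing GC content and length trends and 48 by TPM as deposited. None of these 96 genes turned its direction under any alternative tried. The causes were not tested. Counts below with genotype by tag come from saline groups that each mix libraries of low and high Maged1.

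Protein-coding genes called higher, 227, became 45 with TPM as deposited, 121 with a mean of at least 5 TPM, 127 with GC content and length trends removed, 150 with genotype by tag, 99 with the libraries whose labels agree and 1211 with no fold minimum, and ranged from 119 to 260 with 1 library left out. Those called lower, 108, became 2843, 62 and 50 under the first 3 of these, 1355 with no fold minimum and 68 with control saline as reference, and ranged from 61 to 191 with 1 library left out. Short noncoding RNAs called higher, 15, became 9 with the libraries whose labels agree and ranged from 9 to 17 with 1 library left out. Those called lower, 13, became 27 with TPM as deposited, 8 with trends removed and 4 with the libraries whose labels agree, and ranged from 7 to 17 with 1 library left out. The interaction count, 108, became 15 with TPM as deposited, 0 with genotype by tag, 1 with the libraries whose labels agree and 174 with no fold minimum, and ranged from 22 to 232 with 1 library left out.

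With a replicate block, although the numbers do not pair the libraries, 201 protein-coding genes were higher, 102 lower and 30 had an interaction. Same-number pairs of the cKO groups had correlations of -0.0773 and -0.0447.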
